A study of Homo sapiens with 10 samples.

Results

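The genes described here are 45 genes of detoxification, of glutathione and of NADPH supply. They comprise the NRF2 pathway, aldo-keto and carbonyl reductases, aldehyde dehydrogenases, glutathione transferases, NADPH producers, cytochrome P450 enzymes and ABCC exporters. They were chosen by name: each symbol was matched to its Ensembl gene in GENCODE 44, and all 45 were found among the 60448 genes of the count table. Poly(A) RNA was sequenced from untreated cells of the lines EA.hy926 and HMEC-1, in 5 independent biological replicates per line. The EA.hy926 line was made by fusing human umbilical vein endothelial cells with the lung carcinoma line A549. HMEC-1 is a line of human dermal microvascular endothelial cells that carries the SV40 large T antigen. EA.hy926 cells were grown in Advanced DMEM with 5% fetal bovine serum. HMEC-1 cells were grown in MCDB 131 with 10% serum, 1 µg/mL hydrocortisone and 10 ng/mL epidermal growth factor, and both media held 10 mM glutamine. Line and medium therefore cannot be told apart, and each line stands for a single source of cells.

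NRF2, the product of NFE2L2, is a transcription factor that binds the antioxidant response element (ARE) in DNA. KEAP1 holds NRF2 in the cytoplasm and hands it over for degradation until electrophiles or oxidants modify KEAP1. Among NRF2's known targets are genes for quinone reduction, glutathione synthesis, thioredoxin recycling, NADPH supply and export of conjugates. AHR, the aryl hydrocarbon receptor, is a second sensor of foreign compounds, and CYP1A1 is its best known target. In endothelium these enzymes meet oxidants and drugs that arrive with the blood.

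The ARE core, written TGACNNNGC, was searched on both strands of RefSeq promoter windows (GRCh38.p14) that run from 250 bases before to 50 bases after a gene's start. A window was found for 35 of the 45 members. The core was in the windows of 12 of these 35 members (34.3%) and in 13.3% of all 35116 windows. Counted per gene over the 11378 tested genes with a window, the share was 19.3%. Of the 12 members with a window whose level was higher in EA.hy926 past the thresholds given below, 3 held the core, namely ME1, GSTO1 and MGST1. None of the 3 lower members with a window held it, and 8 of the 18 members that were tested and not past both thresholds did. The runs below show 1 core for each of 10 members, so that the letters can be set beside the measured differences. The cores of CBR1 and PGD, which were not past both thresholds, are not printed. Capitals mark the 9 bases of the core, and 10 bases flank it on each side. Each run is written 5′ to 3′ on the strand on which the core reads forward.
ME1, chr6:83431170-83431198, minus strand, 137 bases before the start: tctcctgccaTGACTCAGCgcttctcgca
GSTO1, chr10:104254656-104254684, plus strand, 226 bases before the start: ggcggagggaTGACTGAGCatttataact
MGST1, chr12:16347135-16347163, plus strand, 30 bases after the start: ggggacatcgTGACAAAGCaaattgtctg
GSTP1, chr11:67583736-67583764, plus strand, 66 bases before the start: gccggcgccgTGACTCAGCactggggcgg
GCLM, chr1:93909446-93909474, plus strand, 34 bases before the start: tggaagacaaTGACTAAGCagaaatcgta
KEAP1, chr19:10502784-10502812, plus strand, 31 bases before the start: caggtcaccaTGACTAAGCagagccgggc
TXNRD1, chr12:104215670-104215698, plus strand, 99 bases before the start: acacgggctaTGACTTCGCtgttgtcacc
IDH1, chr2:208255196-208255224, minus strand, 143 bases before the start: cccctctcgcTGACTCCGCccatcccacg
EPHX1, chr1:225825266-225825294, plus strand, 78 bases before the start: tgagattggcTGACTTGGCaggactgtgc
GPX2, chr14:64942849-64942877, plus strand, 122 bases before the start: atccccaggaTGACTTAGCaaaaacaggt
A match is a description of the letters in this window and no measurement of binding. The first 3 runs belong to members that were higher in EA.hy926. The next 6 belong to members that differed by less than the fold threshold or did not pass the test, and GPX2 had too few counts to be tested. The letters TNGCGTG, the core to which the AHR dimer binds, were in 5.51% of all windows. Counted per gene, they were in the windows of 4 of the 35 members (11.4%), namely NFE2L2, KEAP1, NQO1 and IDH1, and in 9.25% of the tested genes with a window. The windows of CYP1A1 and AHR held neither motif, which says only that these letters are not in the bases searched.

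The libraries held 34846046 to 39899324 counts in EA.hy926, while those of HMEC-1 held 33391640 to 43877224. Values are given as CPM (the count of a gene scaled to a library of fixed size), relative to library sizes scaled with TMM factors. A difference is a log2 fold change (log2FC), EA.hy926 minus HMEC-1, from edgeR's quasi-likelihood test over 16310 genes, with its standard error (SE). A gene was called higher or lower when its adjusted p was under 0.05 and its log2FC over 1 in size. At most 3 counts in every library of a line, which is 0.0651 to 0.0904 CPM, was taken as the floor of detection. All 12 endothelial markers were above this floor in HMEC-1 and 11 were in EA.hy926, where EMCN had at most 2 counts. The sum of the 12 was 4736 to 5395 CPM in EA.hy926, while HMEC-1 had 1756 to 1808 CPM. Taken singly, 6 of them were higher past both thresholds and 2 were lower, EMCN and CLDN5. The log2FC of CLDN5 was -4.27, on 0 to 5 counts in EA.hy926 against 51 to 65, so it lay close to the floor there. KDR did not pass the test (log2FC -0.04, adjusted p = 0.611). The epithelial markers CDH1, ELF3, ESRP1 and SFTPB were at the floor in both lines, while the 10 epithelial markers summed to 1275 to 1389 CPM in EA.hy926, and in HMEC-1 to 425 to 487 CPM. Most of that sum was KRT7, KRT8 and KRT18. By gene, 2 epithelial markers were higher past both thresholds (EPCAM and KRT8) and 2 were lower, KRT19 with a log2FC of -4.71 and CLDN4 with -1.42. The 7 fibroblast markers summed to 0.937 to 1.60 CPM in EA.hy926, and in HMEC-1 to 473 to 502 CPM, with DCN and LUM at 0 in every library. Most of the HMEC-1 sum was COL1A1 and COL1A2, with means of 358 and 108 CPM. There PDGFRB had a mean of 23.2 CPM, COL3A1 one of 0.935 CPM, and PDGFRA had 2 to 7 counts. The part of these marker differences in the results below was not tested.

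EA.hy926 cells had higher levels than HMEC-1 cells of NQO1, MGST1, ME1, GPX1, AKR1B10, AKR1C3, CYP1A1 and ABCC2, and much lower levels of ALDH2, GSTM3, GSTM4 and ABCC3. Of the 45 members, 41 passed the filter on low counts. In edgeR's test 19 of the 41 passed both thresholds (46.3%), beside 35.5% of all genes tested. There were 14 higher members (34.1%), beside 19.1% of all genes, and 5 lower members (12.2%), beside 16.4%. The members were chosen with earlier results of these data known, so these shares describe this list only. The adjusted p alone was under 0.05 for 37 members (90.2%), of which 25 were higher and 12 lower, beside 85.8% of all genes. The median log2FC was 0.36 over the 41 members and -0.010 over all genes tested. In size, the median was 0.77 over the members and 0.65 over all genes. The values of the lines did not overlap for 33 of the 41 members (80.5%) and for 77.4% of all genes. Counts of higher and lower genes by role, given below, stand beside the same 19.1% and 16.4% of all genes. AHR, TXN, GCLM and CBR1 did not pass the test, and GPX2, AKR1C2, ALDH3A1 and CYP1B1 were not tested. A bulk library does not tell whether a lower value means fewer cells that express a gene or less RNA per cell.

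**Figure D1:**
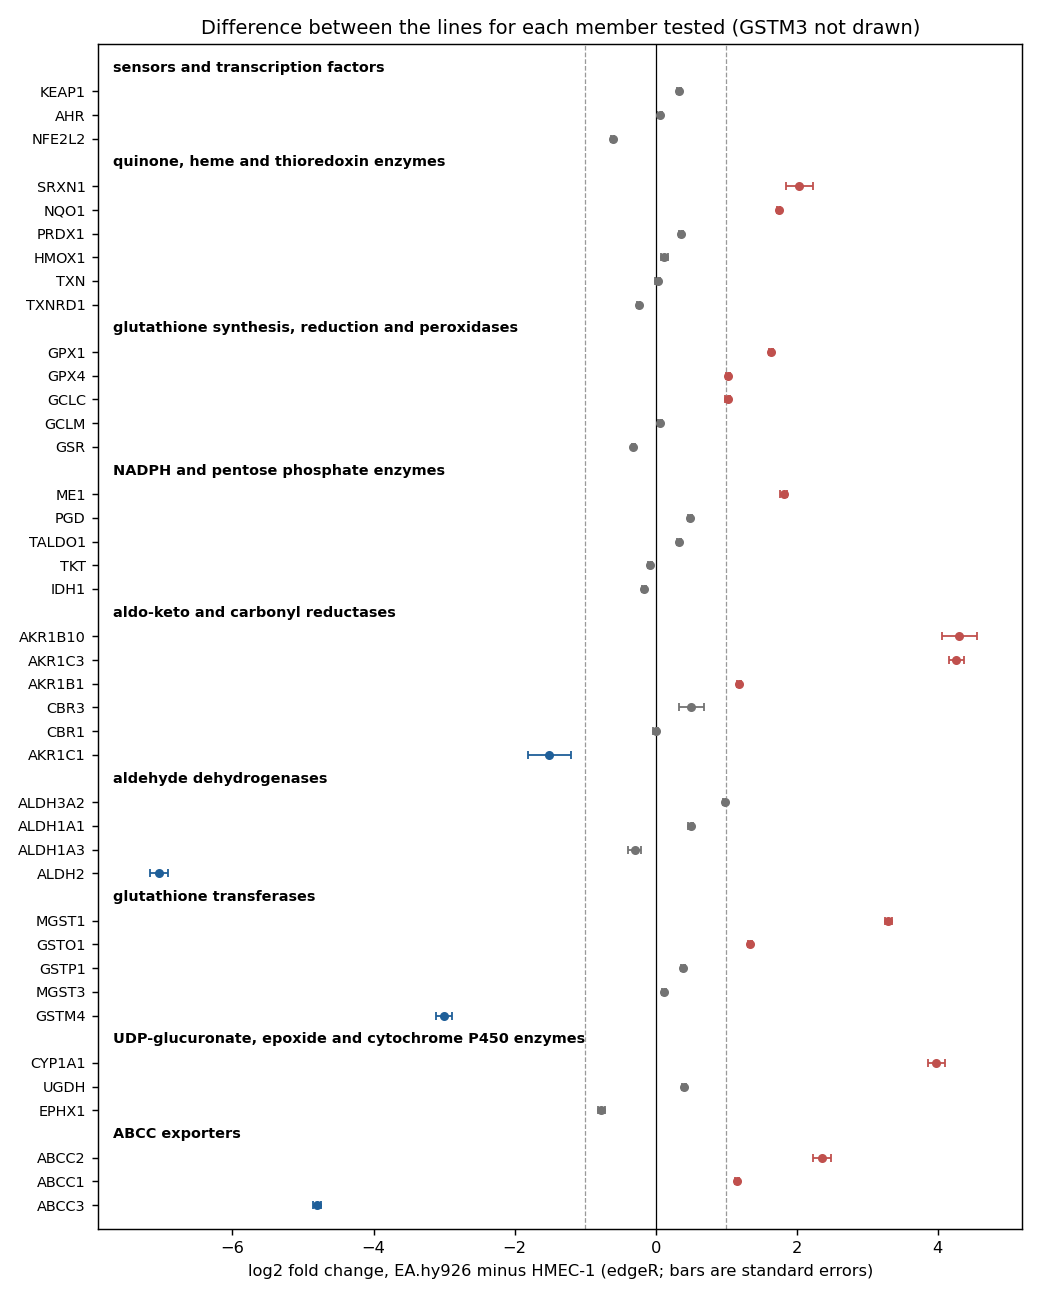
The log2FC (x axis, EA.hy926 minus HMEC-1) is plotted for 40 members grouped by role, with bars for the SE. Red points are higher and blue points lower past both thresholds, grey points are not, and dashed lines mark a log2FC of 1 in either direction. AKR1B10, AKR1C3 and CYP1A1 lie farthest to the right and ALDH2 and ABCC3 farthest to the left. GSTM3 had no count in EA.hy926 and is not drawn.

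The members took 0.531% to 0.553% of all counts in EA.hy926, while in HMEC-1 they took 0.436% to 0.444%, without overlap. The gap was largest by ratio for the aldo-keto and carbonyl reductases, with 0.0338% ± 0.00105 against 0.0180% ± 0.000206 (SD, n = 5), a ratio of 1.89. Genes of glutathione synthesis, reduction and peroxidases followed with a ratio of 1.78, and the ABCC exporters with 1.52. In both lines most counts of the reductases were those of AKR1B1, and most counts of the exporters were those of ABCC1. These ratios thus describe mainly those genes, and ABCC3 went the other way. The NADPH and pentose phosphate enzymes took 0.0893% ± 0.00265 and 0.0884% ± 0.00123 (SD, n = 5). These shares of raw totals overlapped, and that overlap depends on the scaling. The 3 sensors and transcription factors together took a smaller share in EA.hy926, 0.0207% against 0.0243%.

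**Figure D2:**
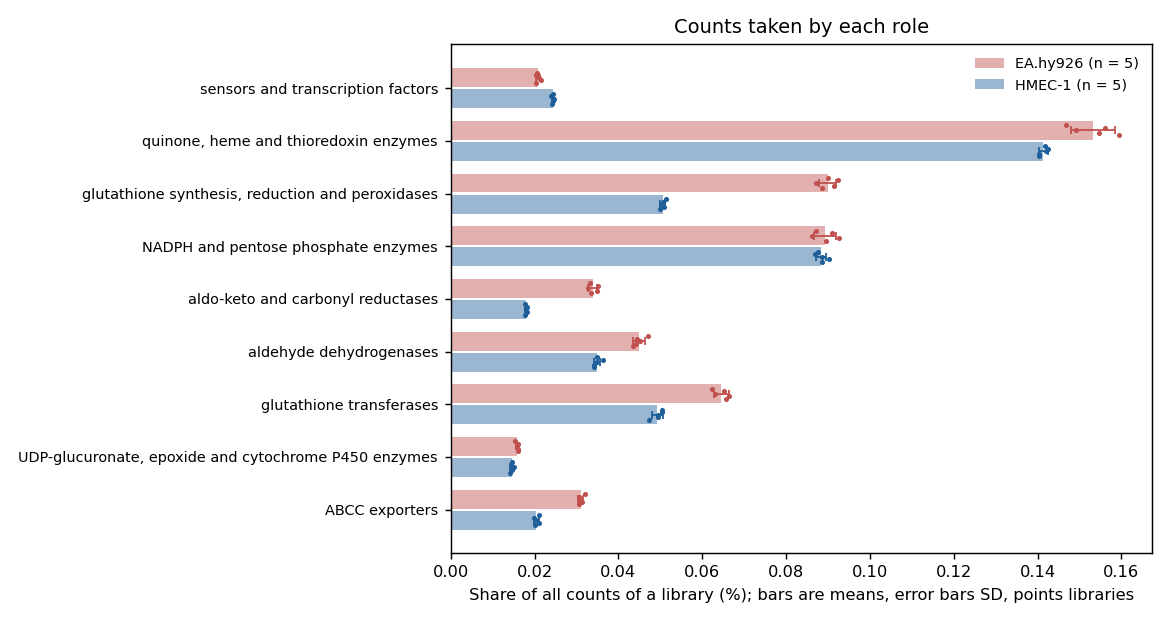
Share of all counts of a library, without TMM factors (x axis, %), taken by the members of each role. Means are bars starting at 0, with SD as error bars and the 5 libraries of each line as points. The red bars of glutathione synthesis, reduction and peroxidases and of aldo-keto and carbonyl reductases extend well past the blue ones, and those of the NADPH and pentose phosphate enzymes nearly coincide.

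Among the sensors, NFE2L2 was lower and KEAP1 slightly higher in EA.hy926. NFE2L2 (ENSG00000116044, chr2:177218667-177392756) was measured at 75.3, 75.9, 76.9, 73.8 and 70.7 CPM in EA.hy926 and at 111, 114, 115, 115 and 115 CPM in HMEC-1. All EA.hy926 libraries lay below all HMEC-1 libraries, with a log2FC of -0.61 (SE 0.028, adjusted p = 7.3e-15 in edgeR), short of the fold threshold. Exons of other genes cover 38.4% of the exonic bases of NFE2L2. KEAP1 was at 112, 109, 113, 119 and 112 CPM in EA.hy926 and at 92.7, 89.2, 90.8, 90.6 and 85.7 CPM in HMEC-1. Its lines did not overlap either, with a log2FC of 0.33 (SE 0.029, adjusted p = 7.1e-10). Within a library, the count of NFE2L2 was 0.621 to 0.699 times that of KEAP1 in EA.hy926, whereas in HMEC-1 it was 1.19 to 1.35 times. AHR was at 30.2, 28.6, 30.6, 30.8 and 29.6 CPM in EA.hy926 and at 29.5, 28.3, 29.6, 28.3 and 28.5 CPM in HMEC-1. These values overlapped, with a log2FC of 0.06 (SE 0.036, adjusted p = 0.158) that turned to -0.08 when libraries were scaled by their totals. Exons of other genes, among them ENSG00000283321, which is not in the count table, cover 35.2% of AHR.

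The quinone, heme and thioredoxin enzymes held 2 higher members of 6 and no lower one. NQO1, which reduces quinones with 2 electrons at once, was at 345, 367, 339, 358 and 360 CPM in EA.hy926. In HMEC-1 it was at 106, 110, 104, 104 and 105 CPM. The EA.hy926 libraries lay far above those of HMEC-1, with a log2FC of 1.74 (SE 0.028, adjusted p = 8.0e-23). NQO1 lies at chr16:69706996-69726668 on the minus strand. SRXN1, sulfiredoxin, reduces over-oxidised peroxiredoxins. It was at 2.84, 2.59, 1.82, 1.87 and 2.40 CPM in EA.hy926 and at 0.684, 0.319, 0.586, 0.613 and 0.602 CPM in HMEC-1. The lines did not overlap and the log2FC was 2.04 (SE 0.19, adjusted p = 2.4e-09), on 64 to 105 counts against 13 to 27. Exons of ENSG00000270299 cover 90.7% of SRXN1, so the level of SRXN1 itself is uncertain. That gene had 19 to 43 counts in EA.hy926, whereas HMEC-1 had 0 to 4.

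The rest of this role differed little. PRDX1, a peroxiredoxin that breaks down hydrogen peroxide, was higher by a log2FC of 0.36 (SE 0.030, adjusted p = 3.3e-10). TXNRD1, which reduces thioredoxin with NADPH, was lower with a log2FC of -0.24 (SE 0.021, adjusted p = 8.4e-10). TXN, its substrate thioredoxin, had a log2FC of 0.03 (SE 0.035, adjusted p = 0.470), which was -0.11 with library totals. HMOX1, the heme oxygenase that frees iron, carbon monoxide and biliverdin from heme, had a log2FC of 0.12 (SE 0.049, adjusted p = 0.0290). The HMOX1 libraries of the lines overlapped. Its adjusted p lay between 0.0573 and 0.0951 in each of 6 fits that left out 1 library, EA.hy926 replicate 1 or 2 or HMEC-1 replicate 1, 3, 4 or 5, and its log2FC was -0.02 with library totals. Across the 6 genes of this role the log2FC thus ran from -0.24 to 2.04.

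**Figure D3:**
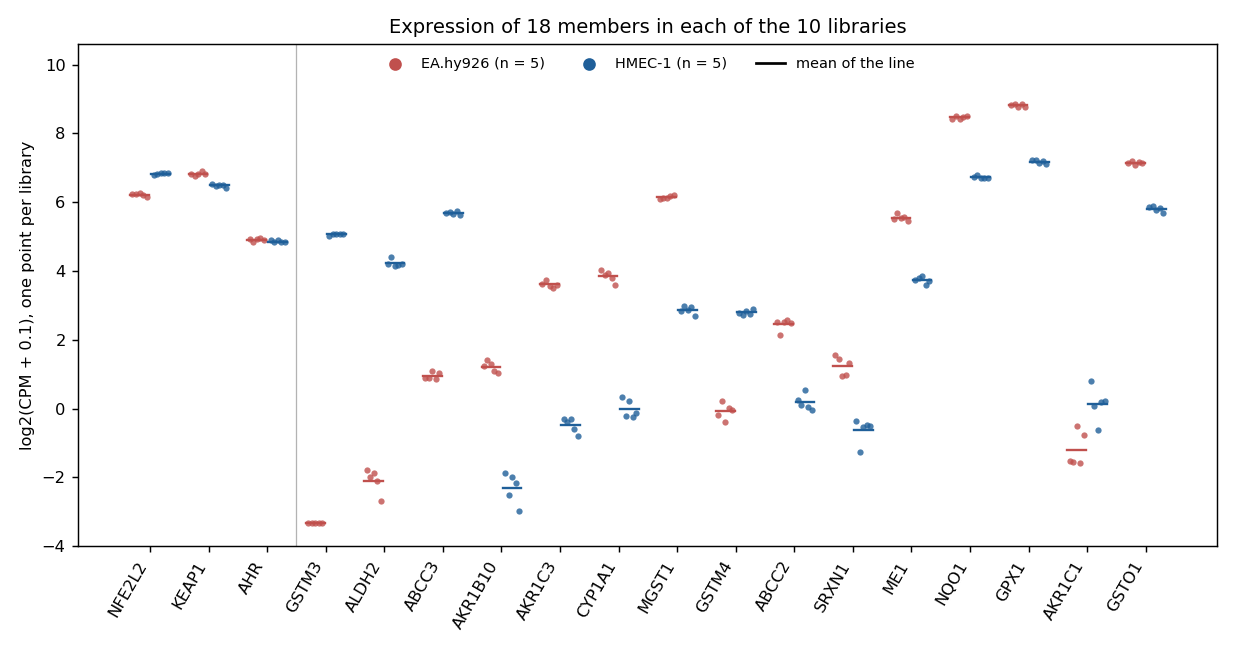
Expression of 18 members as log2(CPM + 0.1) on the y axis, with 1 point for each library (red EA.hy926, blue HMEC-1, n = 5 each) and a line at the mean. NFE2L2, KEAP1 and AHR stand on the left, followed by the 15 members with the largest log2FC in size. GSTM3 has every EA.hy926 library at 0 CPM, and AKR1C1 is the one of the 15 whose lines overlap.

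Genes of glutathione synthesis, reduction and peroxidases held 3 higher members of 5 tested and no lower one. GPX1, the main cytosolic glutathione peroxidase, was at 453, 463, 438, 464 and 438 CPM in EA.hy926. In HMEC-1 it was at 150, 148, 141, 146 and 138 CPM. The lines were well apart, with a log2FC of 1.64 (SE 0.029, adjusted p = 3.9e-22). Exons of ENSG00000290318, a gene that is not in the count table, cover 39.9% of GPX1. GPX4, which reduces lipid peroxides in membranes, was at 273 ± 10.4 CPM against 133 ± 2.98 CPM (SD, n = 5). Its log2FC was 1.03 (SE 0.028, adjusted p = 1.1e-18). GCLC, the catalytic subunit of glutamate-cysteine ligase, was at 58.5 ± 1.65 CPM and 28.8 ± 1.40 CPM (SD, n = 5), with a log2FC of 1.02 (SE 0.036, adjusted p = 1.1e-16). Both lie at the fold threshold. Scaled by library totals, the log2FC was 0.89 for GCLC and 0.90 for GPX4, and without HMEC-1 replicate 2 it was 0.98 for GCLC.

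GCLM, the modifier subunit of the same ligase, was at 80.5 ± 3.20 CPM and 77.3 ± 2.57 CPM (SD, n = 5). Its log2FC of 0.06 (SE 0.032, adjusted p = 0.0919) was -0.08 with library totals. Without EA.hy926 replicate 4 it was 0.08 with an adjusted p of 0.0181. Within a library the count of GCLC was 0.681 to 0.765 times that of GCLM in EA.hy926, and in HMEC-1 0.353 to 0.395 times. The subunits thus stood in a different ratio in each line, without overlap between libraries. GSR, which regenerates reduced glutathione with NADPH, was lower with a log2FC of -0.32 (SE 0.026, adjusted p = 2.5e-10). GPX2, a peroxidase known from the gut, had 3 to 7 counts in EA.hy926, 2 to 4 in HMEC-1, and was not tested.

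Of the 5 NADPH and pentose phosphate enzymes 1 passed both thresholds. ME1, the cytosolic malic enzyme that makes NADPH from malate, was at 45.2, 51.4, 46.1, 47.4 and 43.6 CPM in EA.hy926. The HMEC-1 libraries were at 13.2, 13.7, 14.4, 11.9 and 13.0 CPM. The lines did not overlap, with a log2FC of 1.81 (SE 0.051, adjusted p = 1.9e-18). Its promoter window held 2 ARE cores, 1 of which is printed above. More than 1 core was also found for GSTO1, and for KEAP1 and TXNRD1, which were not past both thresholds. PGD, of the oxidative pentose phosphate branch, was higher by a log2FC of 0.49 (SE 0.025, adjusted p = 5.6e-14). TALDO1 of the non-oxidative branch was higher by 0.33 (SE 0.027, adjusted p = 2.1e-10). TKT, of that same branch, was lower by a small amount, a log2FC of -0.08 (SE 0.026, adjusted p = 0.00712), and its libraries overlapped. IDH1, the cytosolic isocitrate dehydrogenase, was also slightly lower, with a log2FC of -0.16 (SE 0.028, adjusted p = 1.5e-05).

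The aldo-keto and carbonyl reductases included members that differed in opposite directions. AKR1B10, which reduces retinal and lipid aldehydes, was at 2.27, 2.56, 2.33, 2.03 and 1.94 CPM in EA.hy926 and at 0.171, 0.0735, 0.152, 0.123 and 0.0262 CPM in HMEC-1. Counts were 72 to 85 against 1 to 7, with a log2FC of 4.30 (SE 0.25, adjusted p = 4.7e-13). AKR1C3, which reduces ketosteroids and prostaglandins, was at 12.3, 13.2, 11.8, 11.3 and 11.9 CPM in EA.hy926 and at 0.713, 0.662, 0.716, 0.564 and 0.471 CPM in HMEC-1. No library of one line came near the other, with a log2FC of 4.26 (SE 0.10, adjusted p = 1.1e-19). AKR1B1, aldose reductase, was higher by a log2FC of 1.18 (SE 0.026, adjusted p = 2.7e-20), at 304 ± 9.73 CPM against 134 ± 2.22 CPM (SD, n = 5).

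AKR1C1, a 20-alpha-hydroxysteroid dehydrogenase next to AKR1C3, went the other way. It was at 0.244, 0.241, 0.598, 0.234 and 0.485 CPM in EA.hy926 and at 1.63, 0.956, 0.542, 1.03 and 1.07 CPM in HMEC-1. One HMEC-1 library lay below one EA.hy926 library, and the log2FC was -1.51 (SE 0.30, adjusted p = 1.1e-04). The adjusted p was 0.0522 when the test asked for a log2FC beyond 1 in size. AKR1C1 (chr10:4963253-4983283), AKR1C2 (chr10:4987775-5018031) and AKR1C3 (chr10:5035354-5107686) are neighbours. AKR1C2 had 0 to 4 counts in EA.hy926, and HMEC-1 had 2 to 7. Of the runs of 50 bases in the transcripts of AKR1C1, 24.9% occur in transcripts of other genes, as do 35.96% of those of AKR1C2 and 5.23% of those of AKR1C3, so AKR1C1 and AKR1C2 are uncertain. The count of AKR1C3 was 19.8 to 54.9 times that of AKR1C1 in EA.hy926, whereas in HMEC-1 it was 0.439 to 1.32 times.

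The carbonyl reductases differed little. CBR1, which reduces quinones and prostaglandins, was at 34.6 ± 1.40 CPM and 34.6 ± 0.913 CPM (SD, n = 5), a log2FC of 0.00056 (SE 0.036, adjusted p = 0.989) that was -0.13 with library totals. CBR3 had a log2FC of 0.50 (SE 0.18, adjusted p = 0.0116) on overlapping libraries of 37 to 77 counts. With library totals its adjusted p was 0.0536. Exons of other genes, among them the antisense gene ENSG00000236830, cover 71.1% of CBR3.

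**Figure D4:**
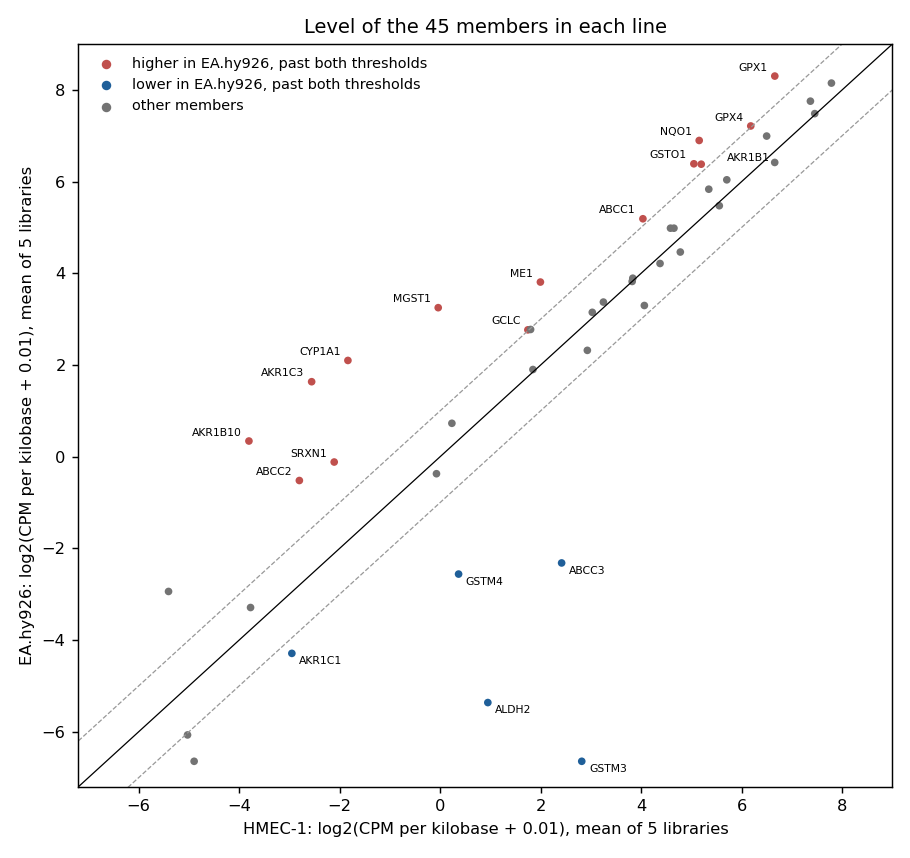
Mean level of the 45 members in each line as log2(CPM per kilobase + 0.01), HMEC-1 on the x axis and EA.hy926 on the y axis. The solid line marks equal levels and the dashed lines a factor of 2. Most highly expressed members lie near the solid line or above it, and GSTM3, ALDH2 and ABCC3 lie far below it.

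The aldehyde dehydrogenases held no higher member past both thresholds and 1 lower one. ALDH2, the mitochondrial enzyme that clears acetaldehyde, was at 0.190, 0.151, 0.171, 0.130 and 0.0539 CPM in EA.hy926. The HMEC-1 libraries were at 18.4, 21.0, 17.7, 18.1 and 18.2 CPM. That is 2 to 7 counts in EA.hy926 against 646 to 855, with a log2FC of -7.04 (SE 0.13, adjusted p = 1.1e-21). ALDH2 lies at chr12:111766887-111817532. ALDH1A1, a cytosolic retinal dehydrogenase, was higher by a log2FC of 0.49 (SE 0.034, adjusted p = 9.5e-12). It was at 361 ± 20.2 CPM and 256 ± 8.24 CPM (SD, n = 5) and was the most abundant member of this role per kilobase in both lines. ALDH3A2, which oxidises fatty aldehydes, came just short of the fold threshold with a log2FC of 0.98 (SE 0.026, adjusted p = 6.6e-19). ALDH1A3, another retinal dehydrogenase, was lower by a small amount, a log2FC of -0.30 (SE 0.087, adjusted p = 0.00319). ALDH3A1 had 10 to 25 counts in EA.hy926, 0 to 5 in HMEC-1, and did not pass the filter.

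The glutathione transferases split into higher and lower members. The values of the lines did not overlap for any of the 6, as was so for 77.4% of all genes. GSTM3 had 0 counts in all 5 EA.hy926 libraries and was at 32.5, 33.4, 33.8, 33.6 and 33.9 CPM in HMEC-1, from 1140 to 1559 counts. Taken against 3 counts in a library, GSTM3 was in EA.hy926 at least 402-fold lower than in HMEC-1. GSTM4, of the same mu class, was at 0.785, 1.05, 0.655, 0.911 and 0.862 CPM in EA.hy926 and at 6.70, 6.495, 7.004, 6.65 and 7.38 CPM in HMEC-1. Its log2FC was -3.00 (SE 0.11, adjusted p = 2.3e-16), and 10.9% of the 50-base runs of its transcripts occur in those of other genes. GSTM3 (chr1:109733932-109741038) and GSTM4 (chr1:109656099-109665496) lie in a cluster with GSTM2, GSTM1 and GSTM5. GSTM1 was not counted once in EA.hy926 (0 counts in each of 5 libraries), against 332 to 482 counts in HMEC-1, a level at least 116-fold lower. GSTM2, named after its values were seen, had 4 to 15 counts against 76 to 95, with a log2FC of -3.08 (adjusted p = 3.8e-11). GSTM5 had at most 1 count in any library. Each of the 4 genes of the cluster that was tested was thus lower in EA.hy926 past both thresholds, and exons of other genes cover 38.3% of GSTM1.

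MGST1, a transferase and peroxidase in microsomal membranes, was at 68.5, 69.1, 69.4, 72.2 and 74.1 CPM in EA.hy926. In HMEC-1 it was at 6.99, 7.72, 7.11, 7.61 and 6.41 CPM. The lines were far apart, with a log2FC of 3.30 (SE 0.046, adjusted p = 8.4e-24). MGST3 of the same membrane family was at 83.2 ± 1.32 CPM and 76.4 ± 2.03 CPM (SD, n = 5). Its log2FC was 0.12 (SE 0.027, adjusted p = 2.5e-04), and it was -0.01 with library totals. The count of MGST1 was thus 0.807 to 0.893 times that of MGST3 in EA.hy926, and in HMEC-1 0.0872 to 0.0995 times. GSTO1, an omega class enzyme that reduces dehydroascorbate, was at 142, 147, 135, 143 and 140 CPM in EA.hy926 and at 58.0, 58.7, 54.1, 57.0 and 51.8 CPM in HMEC-1. These values did not overlap, with a log2FC of 1.34 (SE 0.033, adjusted p = 2.1e-19). GSTP1, the pi class enzyme, was higher by a log2FC of 0.39 (SE 0.027, adjusted p = 1.2e-11). GSTP1 was the most abundant transferase per kilobase in both lines, with 216 ± 5.17 against 165 ± 5.25 (CPM per kilobase, SD, n = 5).

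CYP1A1, the cytochrome P450 enzyme that oxidises polycyclic aromatic compounds, was at 16.2, 14.6, 15.1, 13.9 and 11.99 CPM in EA.hy926. In HMEC-1 it was at 1.17, 0.760, 1.06, 0.736 and 0.811 CPM. The lowest EA.hy926 library was still far above the highest of HMEC-1, with a log2FC of 3.98 (SE 0.11, adjusted p = 2.6e-18), while AHR did not pass the test. CYP1B1, a relative of CYP1A1 and likewise known as an AHR target, had 0 counts throughout EA.hy926, 3 to 8 counts in HMEC-1. It was not tested. EPHX1, the microsomal epoxide hydrolase, was lower with a log2FC of -0.77 (SE 0.047, adjusted p = 1.5e-12). UGDH, which makes UDP-glucuronate for conjugation, was higher by a log2FC of 0.40 (SE 0.027, adjusted p = 6.6e-12).

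All 3 ABCC exporters passed both thresholds, in opposite directions. ABCC3, an exporter of glucuronides and bile acids, was at 1.73, 1.75, 2.02, 1.72 and 1.94 CPM in EA.hy926. The HMEC-1 libraries were at 51.2, 52.7, 50.2, 53.3 and 48.9 CPM. The log2FC was -4.80 (SE 0.057, adjusted p = 6.0e-25), with no overlap. ABCC2, an exporter of glutathione conjugates, was at 5.58, 4.34, 5.58, 5.91 and 5.52 CPM in EA.hy926 and at 1.08, 0.980, 1.37, 0.932 and 0.864 CPM in HMEC-1. It was higher by a log2FC of 2.35 (SE 0.13, adjusted p = 2.6e-13). ABCC1, an exporter of glutathione, its disulfide and its conjugates, was higher by a log2FC of 1.15 (SE 0.027, adjusted p = 7.0e-20), at 318 ± 8.27 CPM against 143 ± 4.39 CPM (SD, n = 5). ABCC1 was the most abundant of the 3 per kilobase in both lines. Its count was 157 to 192 times that of ABCC3 in EA.hy926, and in HMEC-1 2.60 to 2.90 times.

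On the scale of CPM per kilobase of exon, the order of the most abundant members differed between the lines. The length used was that of all annotated exons of a gene merged, such as 9502 bases for TKT and 1010 for TXN. The order within a line therefore depends on the annotation. In EA.hy926 it ran GPX1 (315 ± 9.02), PRDX1 (283 ± 14.4), GSTP1 (216 ± 5.17), TXN (179 ± 6.99) and GPX4 (148 ± 5.65). In HMEC-1 it ran PRDX1 (221 ± 3.96), TXN (175 ± 9.73), GSTP1 (165 ± 5.25), GPX1 (101 ± 3.51) and TXNRD1 (101 ± 1.15), all SD with n = 5. TXN and GSTP1 lay within about 1 SD of each other in HMEC-1, as did GPX1 and TXNRD1. At the other end, GSTM3, ALDH2 and AKR1C1 were the lowest tested members in EA.hy926, and AKR1B10, AKR1C1 and ABCC2 in HMEC-1. The spread between replicates was small, with a median coefficient of variation over the members of 3.69% for EA.hy926, 3.32% for HMEC-1, beside 6.19% and 5.38% over all genes. Members and all genes were not matched for expression level, on which this spread depends.

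A further 149 genes of the same pathways, none of them a member, were found in the table, and 126 of them were tested. Of these, 20 were higher and 23 lower past both thresholds (34.1% in all, beside 35.5% of all genes), and the median log2FC was 0.01. The balance of directions moved with the settings, to 16 higher and 29 lower with library totals and to 16 higher and 13 lower when every library had to hold at least 10 counts. The genes around KEAP1 and NRF2 differed mostly by less than the threshold: of 11 tested, 7 were higher and 4 lower by adjusted p, and 1 passed both. That gene was MAFF, a small MAF protein that can pair with NRF2, with a log2FC of 1.58 (adjusted p = 6.9e-19). Among 15 other NRF2 targets, 3 were higher and 2 lower. OSGIN1 was the highest, at 2.38 (adjusted p = 2.7e-17), and SLC7A11, the cystine importer, was higher by 1.55 (adjusted p = 8.1e-19). PTGR1, which reduces alkenals, was the lowest at -1.55 (adjusted p = 1.5e-20). FTL, the ferritin light chain, had a log2FC of 1.01 (adjusted p = 6.4e-18), at the threshold, and between 0.985 and 0.995 without HMEC-1 replicate 1, 3 or 4. FTH1, the heavy chain, had a log2FC of 0.09 (adjusted p = 0.261) on overlapping libraries, and it was -0.04 with library totals. Its adjusted p was 0.0411 without EA.hy926 replicate 4 and 0.0229 with no filter on low counts. Exons of BEST1 cover 63.2% of FTH1.

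The other glutathione enzymes held 5 lower genes of 19 tested and no higher one. GPX7, a peroxidase of the endoplasmic reticulum, had 0 counts throughout EA.hy926, 76 to 99 in HMEC-1, a level at least 25.8-fold lower. Of 14 tested thioredoxin, peroxiredoxin, superoxide and peroxide enzymes, 4 were higher and 1 lower. TXNRD3 was the highest, at 3.20 (adjusted p = 6.8e-17). PRDX2, a cytosolic peroxiredoxin, had at most 1 count in any EA.hy926 library, 1963 to 2580 in HMEC-1, a level at least 680-fold lower. CAT, catalase, was higher by 0.23 (adjusted p = 9.7e-07) and TXNIP, which binds and inhibits thioredoxin, was lower, with a log2FC of -0.58 (adjusted p = 8.8e-09).

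Of 17 other NADPH and pentose phosphate enzymes, 3 were higher and 2 lower. ALDH1L1, a folate dehydrogenase that makes NADPH, was at 4.09 ± 0.462 CPM in EA.hy926 (SD, n = 5), with only 0 to 4 counts in HMEC-1, a log2FC of 6.14 (adjusted p = 9.7e-16). IDH2, the mitochondrial isocitrate dehydrogenase, was lower, with a log2FC of -1.46 (adjusted p = 1.4e-20). Of 6 other aldo-keto and carbonyl reductases, CBR4 was higher by 1.28 (adjusted p = 6.4e-18) and AKR7A3 lower, with a log2FC of -1.10 (adjusted p = 0.00698) on overlapping libraries of 3 to 29 counts. The log2FC of AKR7A3 was between -0.97 and -0.88 without EA.hy926 replicate 1 or 3 or HMEC-1 replicate 5. Among 9 other aldehyde dehydrogenases, ALDH7A1 was higher by 1.03 (adjusted p = 6.7e-19) and 2 were lower, with ALDH5A1 the lowest at -2.47 (adjusted p = 5.0e-06). That value rests on 0 to 4 counts of ALDH5A1 in EA.hy926 against 14 to 21, so it lay close to the floor there. The log2FC of ALDH7A1 was 0.90 with library totals, and its adjusted p was 0.124 when the test asked for a log2FC beyond 1 in size.

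Of 9 other glutathione transferases, 2 were higher and 3 lower, and GSTT2 was the highest at 2.81 (adjusted p = 1.0e-08). It had 42 to 87 counts in EA.hy926, against 4 to 16. GSTT2B, named after its values were seen, went the other way with a log2FC of -0.80 (adjusted p = 9.4e-08). It had more counts, 168 to 292 in EA.hy926 against 396 to 526. Sequence shared by GSTT2 and GSTT2B was not tested. The other conjugation and oxidation enzymes held 6 lower genes of 13 tested and 2 higher ones. EPHX2, the soluble epoxide hydrolase, was higher by 2.76 (adjusted p = 4.8e-11), and UGT8 had 0 counts throughout EA.hy926, 167 to 216 in HMEC-1, a level at least 58.4-fold lower. Among 6 AHR partners and targets, AHRR, the AHR repressor and a known AHR target, was higher by 1.98 (adjusted p = 2.5e-18), and no gene was lower past both thresholds. Exons of PDCD6-AHRR cover 58.7% of AHRR. Named after their values were seen, ARNT, the partner of AHR, had a log2FC of -0.96 (adjusted p = 3.6e-17), and TIPARP, another AHR target, had -0.26 (adjusted p = 2.5e-07). Of 7 other drug exporters, ABCG2 was the highest, at 64.8 ± 3.32 CPM against 0.509 ± 0.188 CPM (SD, n = 5), a log2FC of 6.95 (adjusted p = 4.4e-24). SLC22A18 was the lowest, at -3.17 (adjusted p = 1.9e-12).

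**Figure D5:**
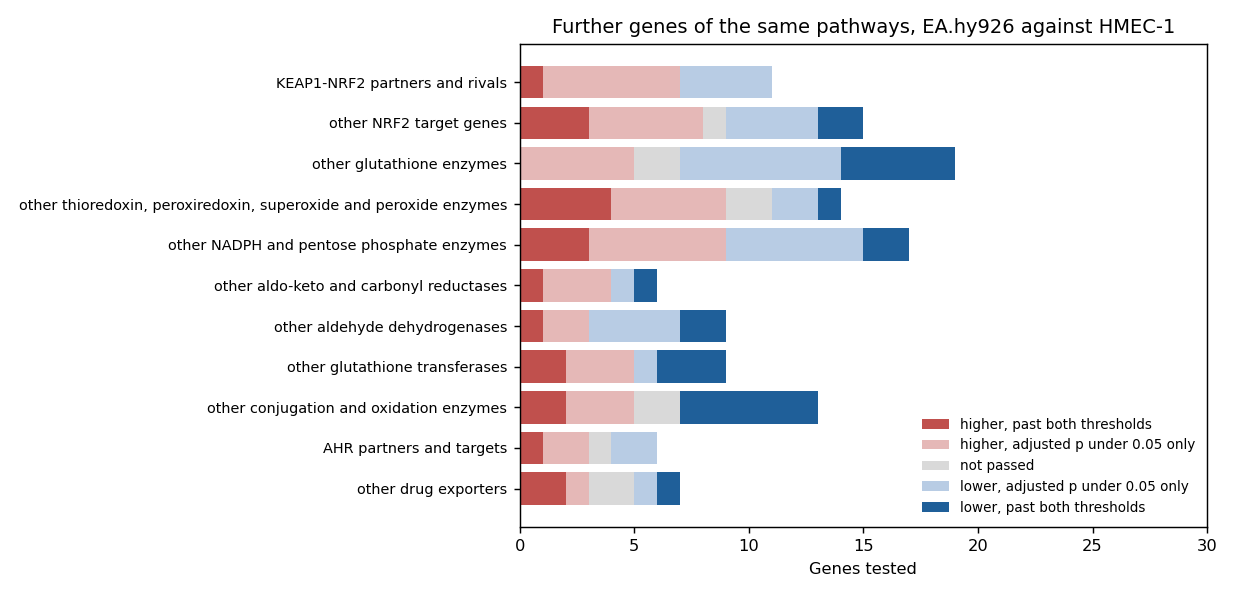
Number of further pathway genes tested in each role (x axis), split by direction and by whether both thresholds or only the adjusted p was passed. Dark red and dark blue mark the 20 higher and 23 lower genes past both thresholds, and the other glutathione enzymes show no dark red.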

How the data were processed

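The authors extracted total RNA from untreated cells of both lines, enriched mRNA with oligo(dT) beads for the libraries, and deposited raw counts of reads per gene, neither normalized nor filtered, aligned to GRCh38 with HISAT2. Counting is credited to HTSeq in the paper and to featureCounts in the submitters' processing notes, and the strand setting and annotation release are not given in the sources used here, so overlapping and antisense genes may share reads. Groups and replicate numbers came from the labels. Symbols, coordinates, exon lengths and exon overlap on either strand came from GENCODE 44, which matched 56434 of 60448 identifiers, with bedtools 2.31.1. Genes were filtered with filterByExpr (minimum count 10, total 15), scaled by TMM and tested with glmQLFTest of edgeR 4.0.16 (R 4.3.3, no covariates), with Benjamini-Hochberg adjustment over 16310 genes. The SE is the log2FC in size divided by the square root of F. Alternatives were DESeq2 1.42.0, limma-voom (limma 3.58.1), RLE factors, library totals, other filters, glmTreat, a replicate block and single libraries left out. Shared sequence was counted as runs of 50 bases. Counts of 0 and floors cover counting error only. Every member was named, with values per library for the 3 regulators and the 15 members of largest log2FC with at least 10 counts in every library of a line. In each pathway role the highest and lowest called genes were named by the same count rule, and SLC7A11, FTL, FTH1, CAT and TXNIP in any case. The result for 1 further gene of the lists is not reported here. The members and lists were chosen with earlier results of these data known. SOD2 and GSTT1 had no matched identifier and were not analysed here.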

Additional observations from a re-analysis of the deposited data

Results flagged for a closer look

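Within each line, 128 sets of 5 values (the tested members and the named pathway genes) were examined for a library that stood apart from the other 4, by the gap to its neighbour over the range of the set, with a critical value of 0.71. Chance alone gives about 1 in 20 such sets, and 6 were found, 3 of them in HMEC-1 replicate 2. SRXN1 was at 0.319 CPM in HMEC-1 replicate 2 and between 0.586 and 0.684 CPM in the other HMEC-1 libraries, and its log2FC was 1.87 without that library. ALDH2 was at 21.0 CPM in HMEC-1 replicate 2 and between 17.7 and 18.4 CPM in the others, with a log2FC of -7.01 without it. GSTM1 was at 8.14 CPM in HMEC-1 replicate 2 and between 9.81 and 10.5 CPM in the others, and remained at 0 in EA.hy926. ABCC2 was at 4.34 CPM in EA.hy926 replicate 2 and between 5.52 and 5.91 CPM in the others, with a log2FC of 2.43 without it. MAFF was at 109 CPM in EA.hy926 replicate 1 and between 91.7 and 95.1 CPM in the others, with a log2FC of 1.54 without it. TXNRD3 was at 1.37 CPM in HMEC-1 replicate 1 and between 0.824 and 0.981 CPM in the others, with a log2FC of 3.31 without it. Each of these genes passed both thresholds without the library named.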

How the results depend on the processing

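The number of members past both thresholds was 19 with DESeq2, limma-voom, RLE factors, AKR1C1 and AKR1C2 summed, and the replicate block, 17 with library totals, 16 with a test against a log2FC of 1, 15 with at least 10 counts in every library, and 22 with no filter. Requiring 10 counts in every library left 2 lower members and, of the pathway genes, 16 higher and 13 lower, since genes at or near 0 in a line then drop out. All genes past both thresholds numbered 9312 with no filter and 3255 with 10 counts in every library. Library totals moved the median log2FC of all genes by -0.135 and the higher share of called genes from 53.8% to 47.7%. With them the log2FC was -0.080 for AHR, -0.015 for HMOX1, -0.11 for TXN, -0.077 for GCLM, -0.13 for CBR1, -0.011 for MGST3 and -0.043 for FTH1. That of CBR1 was -0.020 with no filter. With 1 library left out, CBR1 ranged from -0.024 to 0.026 and TXN from -0.012 to 0.047. GCLC, GPX4, ALDH7A1 and FTL were under a log2FC of 1 with library totals, and none of the 4 passed the test against a log2FC of 1. Same-numbered replicates did not deviate together (correlations of -0.0228 to 0.0389), so the numbers were not taken as pairs. With the replicate block, 19 members passed both thresholds (14 higher, 5 lower), as did 5786 of all genes, and FTH1 had an adjusted p of 0.0346. Genes under about 0.09 CPM are below what this depth shows.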
